A study of Mus musculus with 26 samples.

Results

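Lungs of 5 mice given the high dose of Mitsui XNRi-7, a multiwalled carbon nanotube, were compared with lungs of 5 control mice, 10 of the 25 animals in the series. The members were the animals whose labels give 128 µg/mouse of Mitsui XNRi-7 and the animals labelled as controls. All were MutaMouse mice, about 12 weeks old, a strain whose every cell carries a transgenic reporter used to count mutations. Mitsui high animals had nanotubes in mouse serum instilled into the trachea once a week for 4 weeks, and their lungs were collected 56 days after the last dose. The same schedule held for the 5 Mitsui low animals at 42.7 µg/mouse and for the 5 animals given 128 µg/mouse of another nanotube, NM-401, which are used below for comparison. Whether the dose counts each instillation or the sum of the 4 is not stated. The labels call the controls vehicle controls in one place and describe gavage with olive oil in another, so instillation and serum cannot be told apart from the nanotubes if the controls were gavaged. The sample labels give female mice and the study design male mice. RNA came from random pieces of lung, 1 animal per array in these 10 samples.

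Values below are log2 ratios, on 2-colour Agilent arrays, of the Cy5 signal of lung RNA from 1 animal over the Cy3 signal of a universal mouse reference RNA. Differences are Mitsui high minus control with the standard error of the linear model, n = 5 animals per group throughout. A feature, which is 1 probe per gene or unnamed transcript, was called when its limma p-value, adjusted by Benjamini-Hochberg over 22950 features, was under 0.05. Lung markers were present: 11 defining genes of lung epithelium, endothelium and macrophages, among them Sftpc, Ager, Scgb1a1 and Cdh5, were above background in all 10 animals. The share of probes above background was 47.2% to 58.9% in Mitsui high lungs and 49.6% to 59.1% in control lungs. The 4 slides each held animals of both groups, and 97.4% to 99.7% of the called features kept their direction within a slide. The calls came from these same animals, so that share was partly fixed in advance and is no independent support. Slides 3 and 4 held only 1 animal of each of the 2 groups. Slide passed the test in 5965 features, and with slide as a block the calls numbered 6883 in place of 5447. The results below come from the fit without that block.

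Long, rigid carbon nanotubes are poorly cleared from the alveoli. Macrophages that cannot engulf or digest them release chemokines and proteases, and lipid and undegraded material build up in their lysosomes. In mouse airways, interleukin-4 and interleukin-13 turn secretory cells into goblet cells that make mucins, as part of a type 2 response. Thin alveolar type 1 cells and capillary endothelium form the gas exchange surface, and cuboidal type 2 cells make surfactant and renew the type 1 cells.

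The lungs of Mitsui high mice differed widely from control lungs 56 days after dosing. Of 22950 features, 5447 were called (23.7%), 2915 higher (12.7%) and 2532 lower (11.0%). A further limit of 1.5-fold left 1047 higher (4.56%) and 431 lower (1.88%). In 1886 features all 5 Mitsui high animals lay above all 5 controls (8.22%), and in 1460 they lay below (6.36%). Among the called features, 1174 had no gene symbol. The median difference over all features was -0.0010. Scaling each array by its median in place of loess left 121 calls, 105 of them higher, and moved the median of all features to -0.127; 98.3% of the 5447 features kept their sign.

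**Figure D1:**
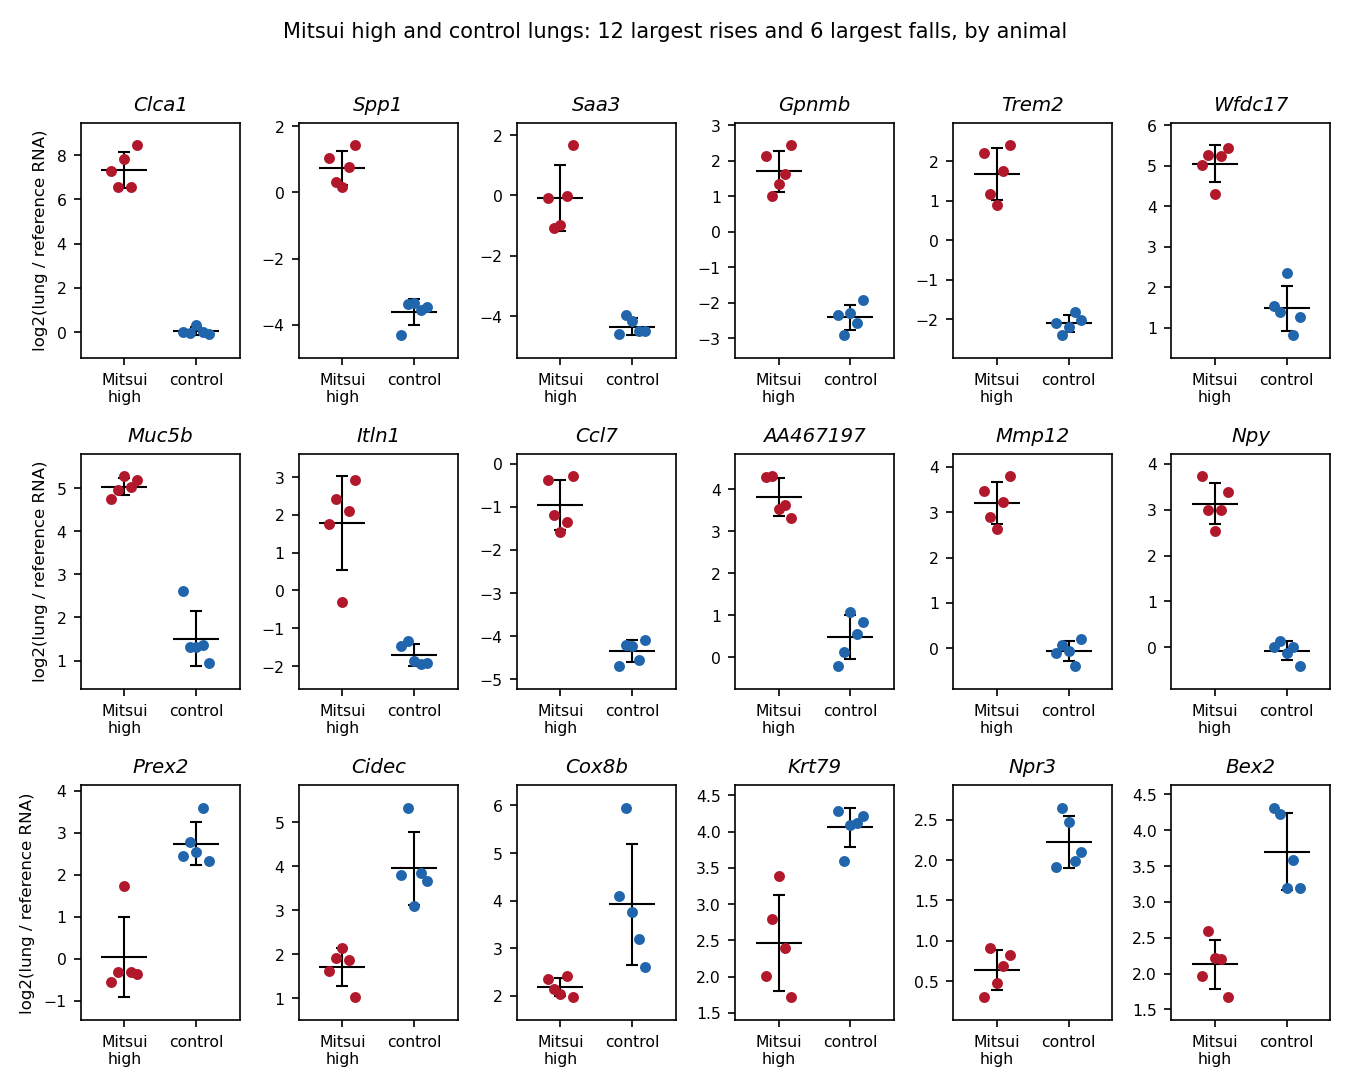
Log2 ratio of lung to reference RNA (vertical axes, scaled per gene) in each of 5 Mitsui high animals (red, left) and 5 control animals (blue, right) for the 12 largest rises and the 6 largest falls; black lines are means and bars are SD. In all 18 genes the 2 groups do not overlap, and Prex2 in Mitsui high animal 3 (1.72) and Muc5b in control animal 1 (2.61) stand apart from the rest of their group.

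Of 40 gene lists, the highest median belonged to genes of lipid-laden, scavenging macrophages and of the lysosome: 32 of 36 tested rose (differences 0.21 to 4.34), 1 fell and 3 were not called, with a median difference of 1.38. In this and the other lists, a change in cell number and a change in RNA per cell cannot be told apart in whole lung. The mean of the list, relative to the control mean, was 1.11 to 1.73 in the 5 Mitsui high animals and -0.13 to 0.07 in the controls. Spp1, which encodes the secreted matrix and signalling protein osteopontin, read 1.03, 0.31, 0.15, 0.78 and 1.42 in Mitsui high animals and -4.3, -3.38, -3.33, -3.55 and -3.47 in control animals. Every Mitsui high lung lay above every control, with a difference of 4.34 ± 0.4 (20.2-fold, adjusted p = 9.44e-08). Gpnmb, a glycoprotein of lysosome-stressed macrophages, read 2.14, 1.01, 1.34, 1.64 and 2.44 in Mitsui high animals, against -2.34, -2.91, -2.3, -2.58 and -1.94 in controls, a 17.5-fold difference (adjusted p = 2.67e-08). Trem2, a receptor by which macrophages sense lipid, read 2.22, 1.17, 0.89, 1.76 and 2.41 in Mitsui high animals and -2.08, -2.39, -2.19, -1.81 and -2.01 in controls. The Trem2 difference was 3.79 ± 0.29 (adjusted p = 8.44e-09), and the groups of both genes stood apart with no overlap. Cd36, a fatty acid translocase that capillary endothelium also makes, was the 1 member that fell (-0.36 ± 0.11, adjusted p = 0.0155). Without Mitsui high animal 1 the Cd36 difference was -0.31 (adjusted p = 0.0528).

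Mmp12, macrophage elastase, belongs to the same list and read 3.47, 2.9, 2.62, 3.22 and 3.78 in Mitsui high animals, against -0.095, 0.066, -0.053, -0.38 and 0.21 in control animals. Only 1 of 5 controls was above background for Mmp12, against 5 of 5 Mitsui high animals. Promoters of 3 genes of the list, Gpnmb, Trem2 and Mmp12, are shown because their windows hold a match to TGANTCA, with N any base. TGANTCA is a loose form of the AP-1 motif, the binding sequence of the Fos and Jun factors. The usual AP-1 motif has C or G at N, whereas the match in Trem2, TGAATCA, has A. The 3 genes were chosen after the values were seen. The windows run from 250 bases before to 50 after the transcript start (RefSeq, GRCm38.p6), written 5′ to 3′ on the gene's strand, and capitals mark each match to TGANTCA on either strand. Gpnmb is at chr6:49036268-49036567 on the plus strand, Trem2 at chr17:48346151-48346450 on the plus strand, and Mmp12 at chr9:7347124-7347423 on the plus strand.
Gpnmb: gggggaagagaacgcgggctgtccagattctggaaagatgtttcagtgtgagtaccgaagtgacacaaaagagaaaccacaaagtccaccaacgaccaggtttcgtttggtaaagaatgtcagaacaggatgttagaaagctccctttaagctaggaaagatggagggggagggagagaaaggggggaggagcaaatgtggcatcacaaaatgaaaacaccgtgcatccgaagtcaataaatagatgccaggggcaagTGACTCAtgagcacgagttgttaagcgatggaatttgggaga
Trem2: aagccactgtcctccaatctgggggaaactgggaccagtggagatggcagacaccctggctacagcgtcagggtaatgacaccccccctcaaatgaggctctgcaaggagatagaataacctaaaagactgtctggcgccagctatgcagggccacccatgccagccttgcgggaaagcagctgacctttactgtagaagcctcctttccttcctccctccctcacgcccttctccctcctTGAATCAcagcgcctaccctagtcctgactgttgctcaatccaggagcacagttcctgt
Mmp12: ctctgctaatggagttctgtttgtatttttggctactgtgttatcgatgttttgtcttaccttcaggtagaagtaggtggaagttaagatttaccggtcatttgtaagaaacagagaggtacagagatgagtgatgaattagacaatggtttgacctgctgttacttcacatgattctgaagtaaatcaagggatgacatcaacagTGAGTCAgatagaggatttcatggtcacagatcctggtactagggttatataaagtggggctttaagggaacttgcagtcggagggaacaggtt
The match began 8 bases after the start in Gpnmb, 9 bases before it in Trem2 and 44 bases before it in 1 of 2 Mmp12 windows. Of the 27 tested genes of the list with a window, 5 held this loose AP-1 motif, and of all 11777 tested genes with a window, 6.96% did. By window the loose AP-1 motif was in 7.81% of 32851. The windows were also scanned for other motifs, the E-box and the interferon-stimulated response element. The E-box was in 5 of the 27 genes, against 10.9% of all tested genes with a window. The interferon-stimulated response element was in 3 of the 27, against 3.8%. AP-1 was thus not the only motif found in windows of this list. A match is a description of these letters, and binding was not measured.

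General markers of macrophages and monocytes also rose, 14 of 26 tested with 0 lower and a median of 0.7. Lilrb4a, an inhibitory receptor of myeloid cells, read 2.26, 1.67, 1.68, 2.12 and 2.68 in Mitsui high animals, against -1.11, -1.27, -0.74, -1.0 and -0.76 in controls (8.33-fold, adjusted p = 3.22e-08). Ms4a7, a membrane protein of tissue macrophages, differed by 3.06 ± 0.32, and the scavenger receptor Msr1 by 2.74 ± 0.3 (adjusted p = 6.68e-07 and 9.31e-07). Over other ways of processing and with 1 animal left out, the Msr1 difference ranged from 2.62 to 4.04. Adgre1, which encodes the macrophage marker F4/80, was 2.48-fold higher, and no Mitsui high animal overlapped a control in any of these 4 genes. Marco, a scavenger receptor of resident alveolar macrophages, was not called (0.48 ± 0.47, adjusted p = 0.505). Siglecf, which marks resident alveolar macrophages and eosinophils in mice, read 3.07, 3.11, 3.28, 3.21 and 3.31 in Mitsui high animals and 3.97, 3.66, 4.08, 3.95 and 4.19 in controls, a fall to 0.585 of control (adjusted p = 0.00376). All 5 Mitsui high values of Siglecf lay below all controls, although its other probe was not called and neither was the gene in the scanner's own log ratios.

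Wfdc17, a secreted protein of activated macrophages, ranked among the largest rises outside the lists, with 5.01, 5.25, 4.29, 5.25 and 5.45 in Mitsui high animals and 1.53, 1.41, 2.37, 0.83 and 1.27 in controls (11.9-fold, adjusted p = 2.08e-08). Npy, a peptide best known as a neurotransmitter, was not above background in any control and read 3.72, 3.0, 2.54, 2.98 and 3.38 in Mitsui high animals (adjusted p = 4.97e-07); with the controls at background, no fold is given. AA467197 read 4.28, 4.3, 3.53, 3.62 and 3.31 in Mitsui high animals, against -0.21, 0.13, 1.08, 0.56 and 0.84 in controls, a difference of 3.33 ± 0.31. Over other ways of processing and with 1 animal left out, that difference ranged from 3.155 to 4.298. No animal overlapped between groups in these 3 genes.

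Chemokines that attract monocytes were among the genes that rose. Of 29 tested chemokine ligands, 16 rose (0.3 to 3.39), 2 fell and 11 were not called, with a median of 0.7. Ccl7, a monocyte chemoattractant, read -0.38, -1.19, -1.57, -1.36 and -0.29 in Mitsui high animals and -4.69, -4.2, -4.23, -4.54 and -4.08 in controls (10.5-fold, adjusted p = 5.9e-06). Ccl2, which recruits monocytes through the same receptor, read -1.1, -1.87, -2.15, -1.52 and -0.58 in Mitsui high animals and -4.47, -4.44, -4.56, -4.58 and -4.53 in controls (8.41-fold, adjusted p = 3.91e-06). Controls differed little among themselves in Ccl2, and the exposed animals spread more widely, with no overlap. Ccl9 and Ccl8 were 7.78-fold and 6.69-fold higher (adjusted p = 8.44e-09 and 2.79e-07). Ppbp, a platelet chemokine, read 2.76, 3.39, 1.92, 1.84 and 2.41 in Mitsui high animals, against 3.8, 3.81, 3.8, 3.62 and 4.04 in controls, and so fell by 1.35 on the log2 scale (adjusted p = 0.000381).

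Cytokines and their receptors showed 16 rises (0.39 to 1.96), 2 falls and 14 members not called of 32, with a median of 0.41. Tlr13, an endosomal receptor for bacterial ribosomal RNA in mice, was 3.89-fold higher (adjusted p = 1.52e-07). Csf2rb, the shared receptor chain for GM-CSF, interleukin-3 and interleukin-5, read 2.42, 1.94, 2.16, 2.32 and 2.7 in Mitsui high animals and 0.89, 0.89, 0.9, 0.53 and 0.89 in controls. Il33, an alarm cytokine that alveolar type 2 cells make in mice, read 3.26, 2.48, 2.46, 3.01 and 3.5 in Mitsui high animals and 1.49, 1.37, 1.6, 1.67 and 1.95 in controls, a 2.5-fold rise (adjusted p = 4.94e-05). Both genes stood apart without overlap. Il6ra, the interleukin-6 receptor, fell (-0.51 ± 0.12, adjusted p = 0.00328).

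Acute phase proteins, which the liver makes in infection and which epithelium and macrophages can make locally, included 11 rises (0.68 to 4.25), 1 fall and 10 members not called of 22, with a median of 0.81. Saa3, a serum amyloid A made outside the liver in mice, read -0.078, -1.08, -0.97, -0.0035 and 1.66 in Mitsui high animals, against -4.6, -3.97, -4.16, -4.51 and -4.51 in controls. That difference of 4.25 ± 0.46 (adjusted p = 8.92e-07) was widest in Mitsui high animal 5, and without that animal it was 3.81 (adjusted p = 2.82e-06). Fgg, the gamma chain of fibrinogen, read 5.6, 4.35, 3.35, 5.56 and 5.03 in Mitsui high animals and 1.7, 1.13, 1.52, 1.53 and 2.08 in controls (9.11-fold, adjusted p = 1.51e-05). Lcn2 and Ltf, which bind bacterial siderophores and iron, were 3.88-fold and 6.41-fold higher (adjusted p = 1.1e-08 and 1.67e-05), and the log2 difference of Ltf was 2.68 ± 0.37, against 1.18 in the scanner's own log ratios. Orm3, an orosomucoid, was the 1 that fell, with 1.02, 1.72, 1.23, 0.9 and 0.83 in Mitsui high animals and 2.21, 3.16, 2.46, 2.46 and 2.51 in controls (adjusted p = 7.54e-05), a call that was lost in the scanner's own log ratios. The liver gene Alb varied from 0.27 to 4.5 in Mitsui high animals and from 0.84 to 3.02 in controls, and its part in the fibrinogen values was not tested.

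Of 22 complement genes, 13 rose (0.52 to 1.7), 0 fell and 9 were not called, with a median of 0.64. C3, the central component, was 2.82-fold higher (adjusted p = 7.55e-08), and C3ar1, the receptor for its fragment C3a, 3.26-fold (adjusted p = 3.16e-06; log2 difference 1.7 ± 0.21, and 2.62 in the scanner's own log ratios). C1qb, a subunit of the classical pathway's recognition protein that macrophages make, read 4.45, 3.75, 3.21, 4.41 and 4.21 in Mitsui high animals and 2.65, 2.91, 2.41, 2.2 and 2.59 in controls, and the groups did not overlap.

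Goblet cell and type 2 genes rose as well. Of 28 tested, 17 rose (0.44 to 7.29), 0 fell and 11 were not called, with a median of 0.96. Il4, Il5, Il13, Il13ra2 and Il25 of this list did not pass the filter for signal above background, so they were not tested. Clca1, a secreted protease that goblet cells release with mucus, was at background in 5 of 5 controls and read 7.27, 6.56, 7.84, 6.58 and 8.44 in Mitsui high animals. It was called higher (adjusted p = 2.24e-06), and no fold is given against controls at background. Muc5b, a gel-forming airway mucin, read 4.76, 4.96, 5.28, 5.02 and 5.19 in Mitsui high animals, against 2.61, 1.33, 1.32, 1.35 and 0.95 in controls. Control animal 1 stood apart at 2.61 but still lay below every exposed animal, and the difference was 3.53 ± 0.25 (adjusted p = 3.38e-09) with it and 3.81 without it. Itln1, a lectin of mucous cells, read 1.76, 2.42, -0.3, 2.1 and 2.92 in Mitsui high animals, with animal 3 lower than the other 4, and -1.47, -1.34, -1.86, -1.96 and -1.93 in controls, only 1 of which was above background. The size of that rise is uncertain: the fitted difference was 3.49 (adjusted p = 0.00376) here and 6.26 in the scanner's own log ratios. The club cell secretoglobin Scgb3a1 rose in the same animals, with 5.16, 5.54, 5.45, 5.58 and 5.7 in Mitsui high and 4.53, 3.44, 3.55, 3.18 and 2.31 in controls (2.08 ± 0.29, adjusted p = 2.09e-05), and differed by 0.48 in the scanner's own log ratios.

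**Figure D2:**
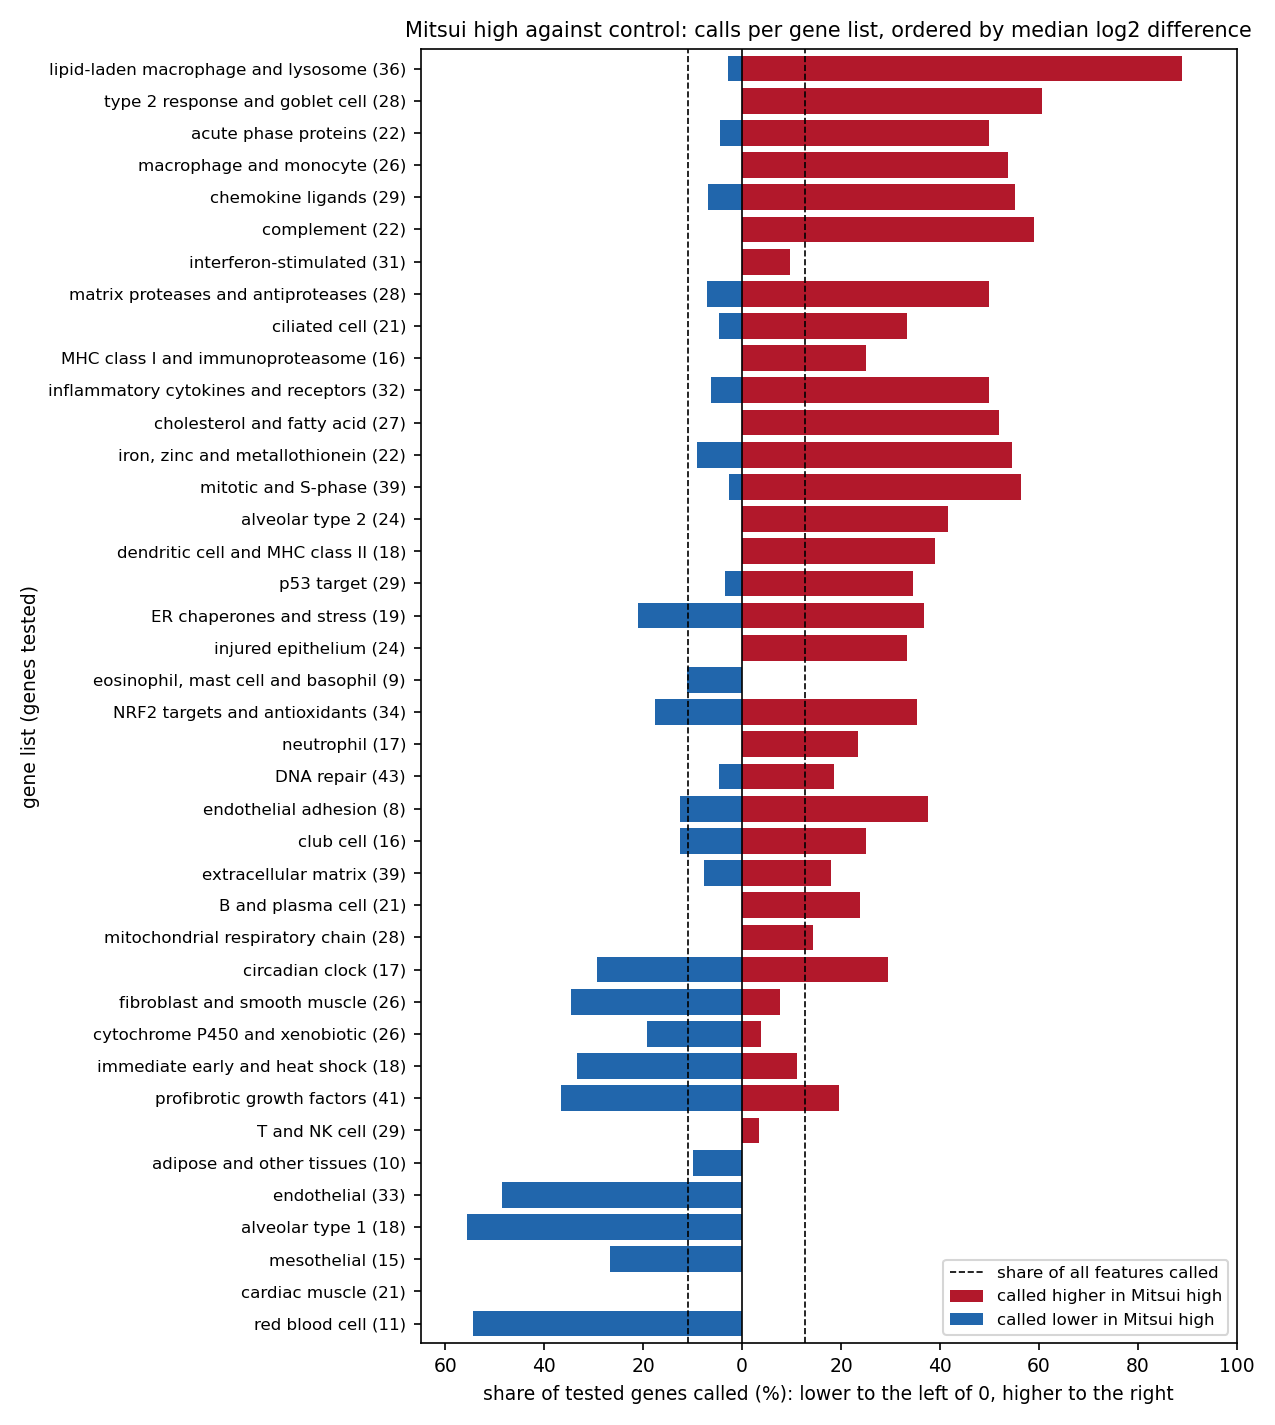
Share of the tested genes in each of 40 lists (vertical axis, number tested in brackets) that were called higher (red, right of 0) or lower (blue, left of 0) in Mitsui high lungs against control lungs, in percent; dashed lines mark the 12.7% and 11.0% of all features called higher and lower. Lists are ordered by their median difference, from the lipid-laden macrophage list at the top, with 32 of 36 higher, to the red blood cell list at the bottom, with 6 of 11 lower.

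Among other leukocytes, neutrophil genes gave 4 rises (23.5%, against 12.7% of all features) and 0 falls of 17. Ltf, which airway glands also make, led these rises. The list median was 0.11. Hdc, the histidine decarboxylase, differed by 0.38 ± 0.11 (adjusted p = 0.0114), a call that was lost in the scanner's own log ratios. Markers of B and plasma cells gave 5 rises (23.8%) and 0 falls of 21, with a median of 0.013 that was -0.0009 with median scaling. Jchain, the joining chain of secreted antibodies, read -0.75, -1.51, -2.18, 0.34 and -0.39 in Mitsui high animals and -2.8, -1.08, -2.95, -3.15 and -3.15 in controls. Control animal 2 lay within the exposed range, and the difference was 1.73 ± 0.43 (adjusted p = 0.00456) with it and 2.11 without it. Blnk, an adaptor of the B cell receptor, was 2-fold higher (adjusted p = 0.0015).

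T and NK cell markers had 1 rise, Foxp3 of regulatory T cells (0.57 ± 0.16, adjusted p = 0.0125, and 1.58 in the scanner's own log ratios), and 0 falls of 29, with a median of -0.21. That 1 rise was 3.45% of the list, against 12.7% of all features. Dendritic cell and MHC class II genes gave 7 rises and 0 falls of 18 (median 0.2, 0.045 with median scaling). Among them the costimulatory ligand Cd86 was 1.99-fold higher (adjusted p = 0.000347) and Cd74, the invariant chain of MHC class II, 1.74-fold (adjusted p = 0.000115), with no overlap in either. Of 9 tested markers of eosinophils, mast cells and basophils, 0 rose and 1 fell (11.1%, against 11.0% of all features), which was Siglecf. Epx, Prg2, Mcpt1, Mcpt2, Mcpt8 and Ms4a2 of this list did not pass the filter for signal above background and were not tested.

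Few interferon-stimulated genes were called: 3 of 31 rose (9.68%, against 12.7% of all features; 3 to 5 when 1 animal was left out), 0 fell and 28 were not called. The median was 0.64, against -0.0010 over all features. In 14 of the 31, all 5 Mitsui high animals lay above all 5 controls, which held for 8.22% of all features. The list mean was 0.31 to 1.12 in Mitsui high animals and -0.18 to 0.21 in controls. Oas1a, an antiviral oligoadenylate synthetase, read 1.67, 0.36, 0.65, 0.95 and 1.84 in Mitsui high animals, against -0.72, -1.21, -1.72, -1.57 and -1.43 in controls (2.42 ± 0.57, adjusted p = 0.00314). Oas2 differed by 1.93 ± 0.52 (adjusted p = 0.00784), and neither gene overlapped between groups. MHC class I and immunoproteasome genes gave 4 rises (2 without Mitsui high animal 1) and 0 falls of 16 (median 0.42), among them H2-K1, a classical class I heavy chain (0.84 ± 0.24, adjusted p = 0.0124).

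Collagen and other matrix genes moved little as a list, whereas proteases and their inhibitors rose in number. Of 39 extracellular matrix genes 7 rose (4 without Mitsui high animal 3) and 3 fell, and the median was 0.019 (-0.18 with median scaling). The called shares of this list were 17.9% higher and 7.69% lower, against 12.7% and 11.0% of all features. Ltbp2, a microfibril protein of the latent TGF-beta binding protein family, read 0.36, -0.077, 0.22, 0.6 and 1.22 in Mitsui high animals and -1.13, -0.88, -0.95, -0.96 and -0.69 in controls (2.62-fold, adjusted p = 2.64e-05). Col3a1, a fibrillar collagen chain, read -0.0042, -0.06, 0.13, 0.16 and 0.28 in Mitsui high animals and -0.63, -0.69, -0.69, -0.38 and -0.89 in controls, a 1.69-fold rise (adjusted p = 0.000179) with no overlap. Nid1, a linker of basement membranes, fell (-0.49 ± 0.091, adjusted p = 0.000372).

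Of 28 tested proteases and antiproteases, 14 rose (0.55 to 3.25) and 2 fell, with a median of 0.5. Adam8, a membrane protease of activated leukocytes, read 0.38, 0.22, -0.079, 0.43 and 0.58 in Mitsui high animals and -2.24, -2.23, -2.17, -2.54 and -2.66 in controls (6.39-fold, adjusted p = 2.83e-10). Mmp19, a matrix metalloprotease, read 2.16, 1.99, 1.08, 1.41 and 1.96 in Mitsui high animals and -0.26, -0.21, -0.32, -0.19 and -0.29 in controls, and like Adam8 it showed no overlap. Plau, the urokinase plasminogen activator, read 1.88, 1.78, -1.01, 0.97 and 1.48 in Mitsui high animals and -1.58, -1.61, -1.73, -1.95 and -0.21 in controls. Control animal 5 lay above Mitsui high animal 3, and the Plau difference of 2.44 ± 0.5 (adjusted p = 0.000971) was 2.74 without that control and 2.95 without that exposed animal. Timp3, a metalloprotease inhibitor bound to matrix, fell (-0.49 ± 0.1, adjusted p = 0.000999).

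Growth factors and receptors linked to fibrosis divided, with 8 rises, 15 falls (-1.46 to -0.27) and 18 members not called of 41, and a median of -0.21. Igf1, a growth factor that macrophages release, read 1.88, 1.26, 1.16, 1.5 and 2.51 in Mitsui high animals and -1.25, 0.013, -0.81, -0.77 and -0.45 in controls (4.97-fold, adjusted p = 8.01e-07), and its 3 other probes were also called higher. Inhba, the activin A subunit, was 2.26-fold higher (adjusted p = 1.4e-05). Igfbp3, a carrier of insulin-like growth factors, read 0.62, 1.51, 0.74, 0.39 and 0.38 in Mitsui high animals and 2.3, 2.0, 2.08, 2.13 and 2.45 in controls, a fall to 0.363 of control (adjusted p = 0.000139). Pdgfra, the PDGF receptor of alveolar fibroblasts, read -0.44, -0.2, -0.28, -0.48 and -0.61 in Mitsui high animals and 0.74, 0.95, 0.67, 0.84 and 0.74 in controls (-1.19 ± 0.13, adjusted p = 9.18e-07). Each of these 4 genes separated the 10 animals without overlap.

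Among alveolar cells, markers of type 1 cells were lower and some markers of type 2 cells were higher. Of 18 type 1 genes, 0 rose, 10 fell (-0.77 to -0.39) and 8 were not called, with a median of -0.4. The list mean was -0.58 to -0.26 in Mitsui high animals and -0.19 to 0.12 in controls. Cav1, the caveolin of type 1 and endothelial cells, read 1.74, 1.46, 1.78, 1.75 and 1.11 in Mitsui high animals and 2.18, 2.19, 2.48, 2.46 and 2.25 in controls (0.597 of control, adjusted p = 0.000203). Limch1, an actin-binding protein, read 7.67, 7.6, 7.37, 7.61 and 7.27 in Mitsui high animals and 8.28, 8.29, 8.26, 8.25 and 8.29 in controls (-0.77 ± 0.1, adjusted p = 6.94e-06). The defining genes Ager, the receptor RAGE, and Hopx, a homeodomain protein, were not called (-0.2 ± 0.087 and -0.16 ± 0.11).

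Type 2 cell markers gave 10 rises and 0 falls of 24, with a median of 0.26 that was -0.0039 with median scaling. Lamp3, a membrane protein of the lamellar bodies that store surfactant, read 3.59, 3.16, 3.01, 3.55 and 3.38 in Mitsui high animals, against 2.83, 2.57, 2.65, 2.8 and 2.81 in controls (1.52-fold, adjusted p = 0.000278). The surfactant protein genes Sftpc, Sftpb and Sftpa1 were not called (0.074 ± 0.14, -0.071 ± 0.11 and 0.31 ± 0.12). Genes of injured or basal epithelium gave 8 rises and 0 falls of 24 (median 0.18, -0.03 with median scaling). Krt5, the keratin of basal cells, read 1.18, 2.01, 1.28, 1.54 and 2.17 in Mitsui high animals and 0.071, 0.037, 0.14, -0.22 and -0.061 in controls, without overlap (3.12-fold, adjusted p = 0.000811). Clu, the secreted chaperone clusterin, was 1.67-fold higher (adjusted p = 0.0106).

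In the airway lists, club cell markers gave 4 rises (25.0%) and 2 falls (12.5%) of 16. Ciliated cell markers gave 7 rises (33.3%) and 1 fall (4.76%) of 21. Over all features, 12.7% were called higher and 11.0% lower. The medians were 0.028 for club cells and 0.43 for ciliated cells, and the club value was -0.18 with median scaling. Upk3a, a uroplakin of variant club cells, was 2.39-fold higher (adjusted p = 0.00227), while Scgb1a1, the main club cell secretoglobin, was not called (0.059 ± 0.23). Gsta3, a glutathione transferase of club cells, read 3.77, 3.93, 3.97, 3.51 and 3.11 in Mitsui high animals and 4.9, 4.95, 4.86, 4.6 and 4.78 in controls, a fall to 0.448 of control (adjusted p = 0.000138). Foxj1, the master regulator of motile cilia, read 3.57, 4.11, 3.73, 3.64 and 3.46 in Mitsui high animals and 2.72, 2.81, 3.53, 3.64 and 3.0 in controls (adjusted p = 0.00994). Controls 3 and 4 overlapped the exposed animals for Foxj1, and its call was lost in the scanner's own log ratios. The ciliated list mean was 0.83 in Mitsui high animal 2 and 0.26 to 0.30 in the other 4, against -0.32 to 0.45 in controls. Without control animal 1, 3 of 21 ciliated genes were called higher, in place of 7.

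Endothelial genes were lower: 16 of 33 fell (-1.56 to -0.30), 0 rose and 17 were not called, with a median of -0.33. The endothelial list mean was -0.68 to -0.18 in Mitsui high animals and -0.08 to 0.09 in controls. Esm1, a proteoglycan of sprouting endothelium, read 1.1, 1.64, 1.13, 0.64 and 0.042 in Mitsui high animals and 2.5, 2.6, 2.2, 2.62 and 2.48 in controls (0.338 of control, adjusted p = 0.000396). Flt1, a VEGF receptor, read 3.4, 3.85, 3.6, 3.47 and 3.2 in Mitsui high animals and 4.3, 4.52, 4.33, 4.71 and 4.42 in controls (-0.95 ± 0.14, adjusted p = 4.82e-05). Ednrb, the type B endothelin receptor, was at 0.494 of control (adjusted p = 0.000626), and none of these 3 overlapped. Of the defining markers, the adhesion molecule Pecam1 fell (-0.51 ± 0.16, adjusted p = 0.0242), a call lost in the scanner's own log ratios and without Mitsui high animal 1 (-0.43), 3 (-0.48) or 4 (-0.46) or control animal 5 (-0.44), and Cdh5, the endothelial cadherin, was not called (-0.25 ± 0.69). In a list of endothelial adhesion and activation genes 3 rose and 1 fell of 8 (median 0.062, -0.02 with median scaling), and Selp, the adhesion molecule P-selectin, was one that rose (0.45 ± 0.11, adjusted p = 0.00437, and 0.80 in the scanner's own log ratios).

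Among fibroblast and smooth muscle genes, 2 rose (up to 4 when 1 animal was left out), 9 fell (-1.19 to -0.44) and 15 were not called of 26, with a median of -0.15. Tcf21, a transcription factor of lung lipofibroblasts, read 3.65, 4.21, 3.72, 4.06 and 3.65 in Mitsui high animals and 4.76, 4.82, 5.0, 4.89 and 5.09 in controls (0.482 of control, adjusted p = 2.47e-05). Itga8, an integrin chain of alveolar fibroblasts, was at 0.501 of control (adjusted p = 0.000221), and the calls of both genes were lost in the scanner's own log ratios. Pi16, a protein of adventitial fibroblasts, rose (0.75 ± 0.18, adjusted p = 0.00295). Mesothelial genes gave 0 rises and 4 falls of 15 (26.7%, against 11.0% of all features), with a median of -0.4. The falls numbered 3 without Mitsui high animal 3 and up to 7 without another animal. Gpm6a, a membrane glycoprotein (-0.83 ± 0.23, adjusted p = 0.0093), and Nkain4 (-0.67 ± 0.18, adjusted p = 0.00851) were among the 4. The mesothelial list mean overlapped between groups, at -0.80 to -0.06 in Mitsui high animals and -0.51 to 0.42 in controls.

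Genes of tissues next to or within the sampled piece varied between animals. Of 21 cardiac muscle genes 0 were called by limma (up to 2 lower when 1 animal was left out), although the list mean was -0.75 to -0.27 in Mitsui high animals and spread from -0.99 to 0.77 in controls, with controls 1 to 3 at 0.42 to 0.77. Myl3, a myosin light chain, had the smallest p of that list (-1.21 ± 0.55, adjusted p = 0.117). Red blood cell genes gave 0 rises and 6 falls of 11 (54.5%, against 11.0% of all features), with a median of -0.45. The falls numbered 3 without Mitsui high animal 1 and up to 8 without another animal. Bpgm, which makes an effector of haemoglobin, was among the 6 (-0.52 ± 0.13, adjusted p = 0.00585). Of 10 genes of adipose and other tissues 0 rose and 1 fell, and the list mean stood at 1.41 in control animal 2 and at -0.52 to -0.07 in the other controls, against -0.79 to -0.24 in Mitsui high animals.

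Cidec, a lipid droplet protein of fat cells, read 1.62, 1.93, 2.15, 1.86 and 1.03 in Mitsui high animals and 3.8, 5.33, 3.1, 3.85 and 3.68 in controls (-2.23 ± 0.51, adjusted p = 0.00222). Cox8b, a respiratory subunit of brown fat and muscle, read 2.35, 2.14, 2.03, 2.41 and 1.98 in Mitsui high animals and 4.1, 5.95, 3.76, 3.2 and 2.62 in controls (-1.74 ± 0.43, adjusted p = 0.00426). Control animal 2 was highest in both genes, and without it the differences were -1.89 for Cidec and -1.24 for Cox8b (adjusted p = 0.00915 and 0.0109). Both calls were lost in the scanner's own log ratios.

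The remaining largest falls came from genes outside the lists. Krt79, a keratin, differed by -1.60. Its call was lost in 6 of the 10 fits that each left out 1 animal, and also in the scanner's own log ratios. Prex2, a guanine exchange factor for Rac, read -0.54, -0.32, 1.72, -0.32 and -0.36 in Mitsui high animals and 2.44, 2.78, 2.54, 3.6 and 2.34 in controls. Only Mitsui high animal 3 was above background and the other 4 were not, so the size of the fall is uncertain: the fitted difference (adjusted p = 0.00103) was -2.7 here and -5.34 in the scanner's own log ratios. Npr3, a clearance receptor for natriuretic peptides, read 0.3, 0.91, 0.48, 0.69 and 0.82 in Mitsui high animals and 1.91, 2.65, 2.47, 1.99 and 2.1 in controls, without overlap (0.333 of control, adjusted p = 4.54e-06). Bex2 differed by -1.57 ± 0.22 (adjusted p = 1.92e-05), and in the scanner's own log ratios by -0.67, where the call was lost (adjusted p = 0.161). Fign, a microtubule-severing ATPase, read 0.89, -1.72, 0.87, 0.55 and 0.79 in Mitsui high animals and 1.38, 1.73, 1.54, 2.12 and 1.55 in controls. Its difference of -1.39 ± 0.32 (adjusted p = 0.00288) was -0.89 without Mitsui high animal 2 (adjusted p = 0.000314).

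**Figure D3:**
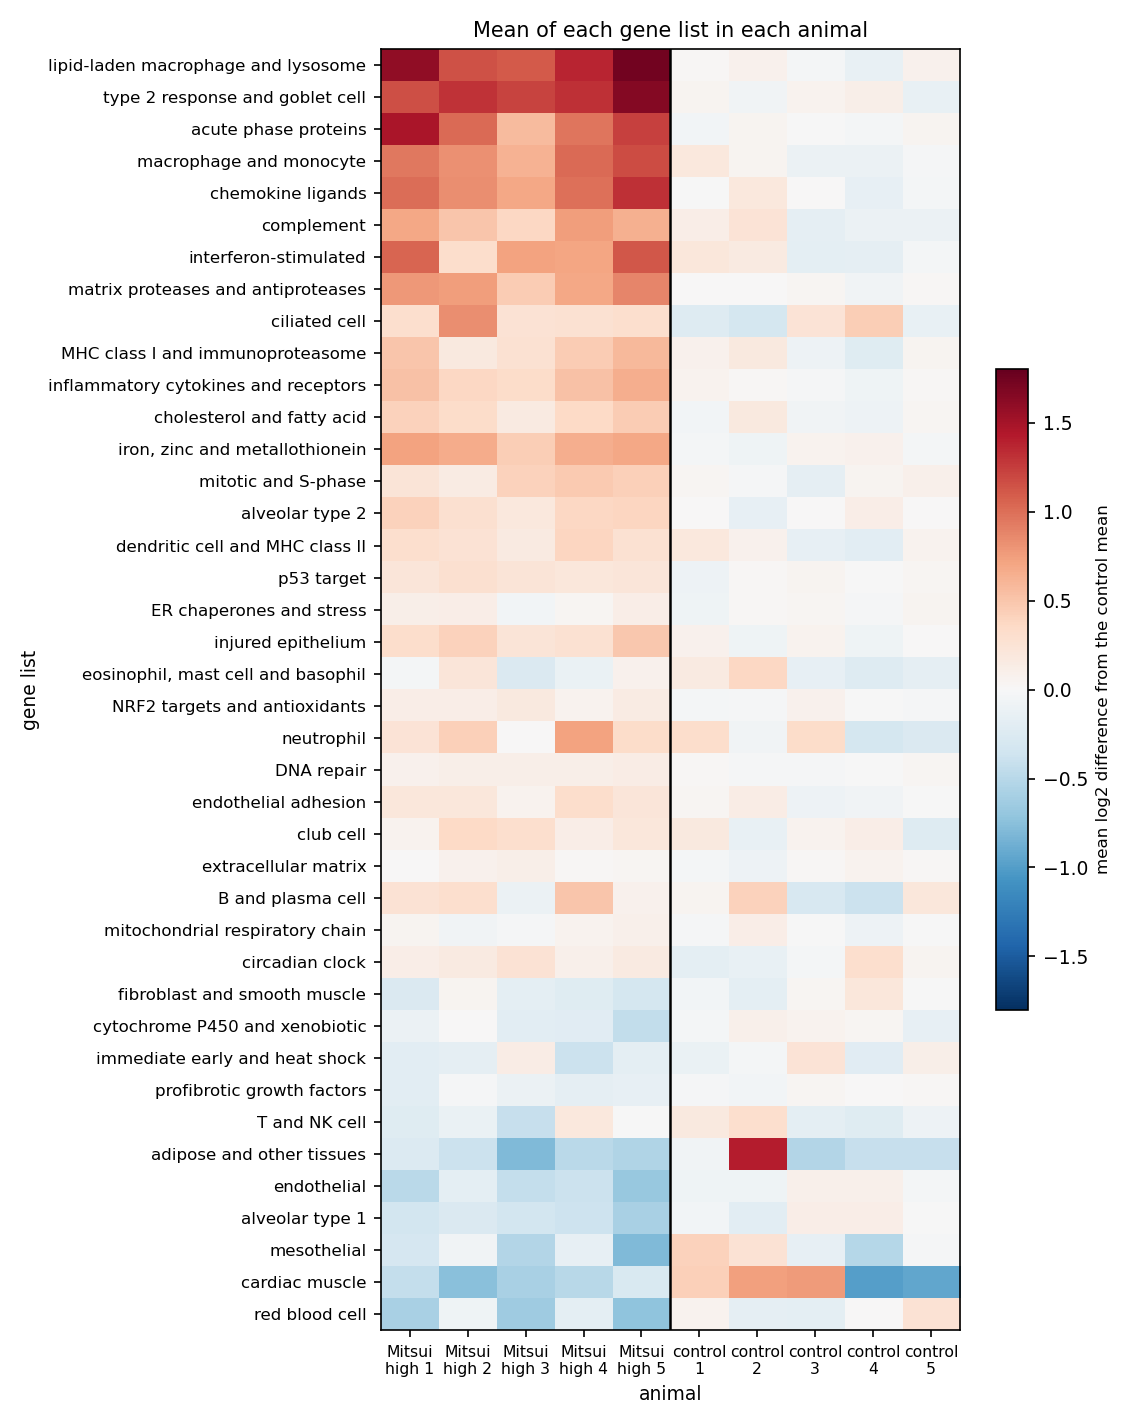
Mean of each of 40 gene lists (rows) in each of 5 Mitsui high animals (left) and 5 control animals (right), as the log2 difference from the control mean in colour (red higher, blue lower). The lipid-laden macrophage and type 2 rows are red in all 5 Mitsui high animals (lowest 1.11 and 1.16), the cardiac row changes sign among the controls, and the adipose row is red in control animal 2 at 1.41.

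Changes in cell cycle genes were small. Of 39 mitotic and S-phase genes, 22 rose (0.19 to 0.79), 1 fell and 16 were not called, with a median of 0.31. The list mean was 0.14 to 0.46 in Mitsui high animals and -0.16 to 0.085 in controls. Mki67, the proliferation marker Ki-67, read -3.34, -3.58, -3.04, -2.72 and -2.93 in Mitsui high animals and -3.65, -3.85, -4.16, -3.66 and -3.7 in controls (1.61-fold, adjusted p = 0.00187). Uhrf1, which maintains DNA methylation in S phase, was 1.73-fold higher (adjusted p = 4.96e-06), and neither gene overlapped.

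The study's title names genotoxicity, so targets of the damage sensor p53 and DNA repair genes were read as lists. Of 29 p53 targets 10 rose (34.5%), 1 fell (3.45%) and 18 were not called (median 0.19, 0.035 with median scaling). Over all features, 12.7% were called higher and 11.0% lower. Gdf15, a secreted stress cytokine that other stress pathways also raise, read 0.0021, -0.21, -0.77, -0.48 and -0.63 in Mitsui high animals and -2.62, -2.1, -1.99, -2.18 and -1.99 in controls (3.39-fold, adjusted p = 8.54e-07). The p53 targets Plk3, a kinase, and Sulf2, a heparan sulfatase, were 1.57-fold and 1.63-fold higher (adjusted p = 0.000104 and 0.000105), and Xpc, which detects damage for nucleotide excision repair, fell (-0.29 ± 0.076, adjusted p = 0.00647). DNA repair genes gave 8 rises and 2 falls of 43, and 33 were not called (median 0.075, -0.11 with median scaling). The called shares were 18.6% higher and 4.65% lower, against 12.7% and 11.0% of all features. Apex1, an endonuclease of base excision repair, was 1.39-fold higher (adjusted p = 0.000779).

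Antioxidant genes under the factor NRF2 split, with 12 rises (35.3%) and 6 falls (17.6%) of 34 (median 0.13, -0.08 with median scaling). Over all features, 12.7% were called higher and 11.0% lower. Ftl1, the ferritin light chain, was 2.65-fold higher (adjusted p = 6.48e-05), and Hmox1, heme oxygenase 1, read -0.28, -0.61, -0.88, -0.7 and -0.17 in Mitsui high animals and -1.47, -1.57, -1.59, -1.41 and -1.51 in controls (1.98-fold, adjusted p = 5.26e-06). Genes of iron and zinc handling gave 12 rises and 2 falls of 22 (median 0.36). Slc11a1, a metal transporter of the phagosome, was 4.12-fold higher (adjusted p = 5.27e-07). Xenobiotic enzymes gave 1 rise (3.85%) and 5 falls (19.2%) of 26, with a median of -0.2. The falls numbered 3 without Mitsui high animal 4 and up to 8 without another animal. Cyp4b1, an abundant lung P450, read 7.06, 7.23, 7.34, 7.11 and 6.37 in Mitsui high animals and 7.44, 7.78, 8.02, 7.8 and 7.68 in controls (0.605 of control, adjusted p = 0.00183), and that call was lost in the scanner's own log ratios. Cyp7b1, which hydroxylates oxysterols, was the 1 that rose (2.62-fold, adjusted p = 2.77e-06).

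Genes of cholesterol and fatty acid synthesis gave 14 rises (0.3 to 2.32) and 0 falls of 27, with a median of 0.38. Ch25h, which makes 25-hydroxycholesterol, the oxysterol that Cyp7b1 breaks down, read 3.26, 3.6, 2.61, 3.35 and 3.19 in Mitsui high animals and 0.55, 1.01, 0.74, 0.94 and 1.18 in controls, with no overlap (4.99-fold, adjusted p = 2.99e-08). Sqle and Dhcr7, 2 enzymes of the sterol pathway, were 1.69-fold and 1.76-fold higher (adjusted p = 0.00119 and 0.000203).

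Clock genes moved in both directions, 5 higher and 5 lower of 17. Dbp, an output factor of the clock with a strong daily rhythm, read 0.017, -0.064, 0.9, 0.3 and 0.13 in Mitsui high animals and -2.82, -3.05, -1.72, -0.67 and -1.6 in controls. All exposed values lay above all controls, which spread over more than 2 log2 units, and the difference was 2.23 ± 0.36 (4.69-fold, adjusted p = 9.98e-05). Arntl, which encodes the core clock factor BMAL1, read 0.12, 0.14, -0.38, -0.33 and 0.14 in Mitsui high animals and 1.09, 0.77, 0.93, 0.72 and 1.11 in controls (0.504 of control, adjusted p = 2.58e-05). Bhlhe40, a repressor within the clock, was 2.25-fold higher (adjusted p = 6.32e-07), while Per1 fell and overlapped (-0.83 ± 0.23, adjusted p = 0.00877). The labels give no time of day for tissue collection, and its part in these values was not tested.

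Early response and heat shock genes also moved both ways, 2 higher and 6 lower of 18 (median -0.2). Atf3, a stress transcription factor, and Egr2, a zinc finger factor of macrophages, were 2.61-fold and 2.47-fold higher (adjusted p = 2.34e-05 and 1.58e-06). Hspa1a, the inducible chaperone HSP70, read -0.24, -0.13, 0.29, -0.14 and 0.26 in Mitsui high animals and 0.6, 1.61, 2.0, 1.28 and 0.95 in controls (0.412 of control, adjusted p = 4.35e-05), and its partner Dnajb1 was at 0.502 of control (adjusted p = 8.92e-07). Neither heat shock gene overlapped. Hspa1a has a near-identical copy, Hspa1b, whose RNA its probe may also bind. Endoplasmic reticulum chaperones gave 7 rises and 4 falls of 19 (2 falls without Mitsui high animal 5; median 0.18, -0.011 with median scaling), with Sdf2l1 at 0.58 ± 0.11 and the amino acid enzyme Asns at -0.39 ± 0.086. Respiratory chain genes gave 4 rises (2 without Mitsui high animal 1) and 0 falls of 28, close to the share among all features, with a median of -0.014.

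**Figure D4:**
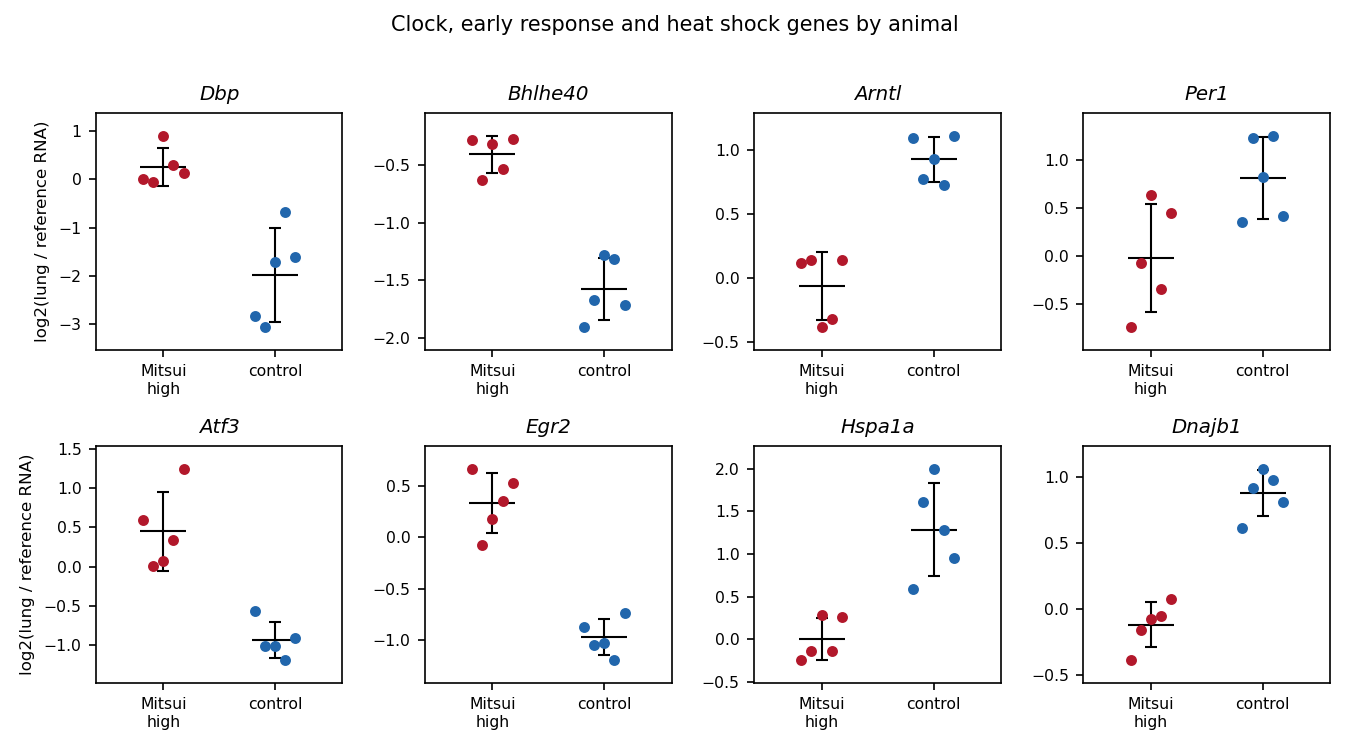
Log2 ratio of lung to reference RNA (vertical axes, scaled per gene) in each of 5 Mitsui high animals (red, left) and 5 control animals (blue, right) for 4 clock genes and 4 early response or heat shock genes; black lines are means and bars are SD. Only Per1 overlaps between the groups, and Dbp in controls ranges from -3.05 to -0.67.

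Against the low dose of the same nanotube, no feature was called (0 of 22950, 0%), with 1243 at an unadjusted p under 0.05 by limma. In 253 features the 2 Mitsui groups did not overlap (1.10%). The smallest p belonged to Haus5, Apbb3 and Gabbr1 (each adjusted p = 0.136), with differences of 0.31 ± 0.057, 0.3 ± 0.057 and 0.51 ± 0.1. Clca1 averaged 7.34 ± 0.81 in Mitsui high and 7.4 ± 1.28 in Mitsui low lungs (SD, n = 5 each), and Spp1 averaged 0.74 ± 0.52 in Mitsui high and 0.26 ± 0.34 in Mitsui low lungs. A difference that misses the threshold does not show that the doses acted alike, and with slide as a block 15 features were called.

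Against NM-401 at the same dose, 182 features were called (0.793%), 76 higher (0.331%) and 106 lower (0.462%), and 3954 had an unadjusted p under 0.05. The groups did not overlap in 613 features (2.67%). The count of 182 depended on single animals: it was 6 without Mitsui high animal 2, 7 without Mitsui high animal 3, 9 without NM-401 high animal 3, 26 without NM-401 high animal 5, 44 without Mitsui high animal 4, 83 without NM-401 high animal 1, 899 without Mitsui high animal 5 and 913 without NM-401 high animal 2. Clock genes were the list with the most calls, 5 higher and 2 lower of 17. Dbp averaged 0.26 ± 0.39 in Mitsui high and -2.02 ± 0.7 in NM-401 high lungs (2.27 ± 0.36, adjusted p = 0.00831). Nfil3, a clock repressor, averaged -1.21 ± 0.24 in Mitsui high and -0.2 ± 0.11 in NM-401 high lungs (-1.0 ± 0.1, adjusted p = 7.77e-06). Both pairs of groups were without overlap, and both calls remained when any 1 animal of the pair was left out.

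Several inflammatory genes were lower in Mitsui high than in NM-401 high lungs. Cxcl5, a neutrophil chemokine, averaged -1.14 ± 0.78 in Mitsui high and 0.49 ± 0.81 in NM-401 high lungs (-1.63 ± 0.39, adjusted p = 0.0478). Il6 averaged -1.07 ± 0.45 in Mitsui high and -0.067 ± 0.35 in NM-401 high lungs (-1.01 ± 0.21, adjusted p = 0.0325). The macrophage gene Ms4a7 differed by -1.39 ± 0.32 and Hk3, a hexokinase of myeloid cells, by -1.11 ± 0.24 (adjusted p = 0.0434 and 0.0325), with overlap between animals in all 4. Ccn2, a matrix growth factor, was higher in Mitsui high, at 1.1 ± 0.19 against 0.32 ± 0.34 in NM-401 high lungs (0.78 ± 0.14, adjusted p = 0.0157), without overlap. Of the 10 fits that each left out 1 animal, the call was lost in 7 for Cxcl5, 5 for Il6, 7 for Ms4a7, 6 for Hk3 and 3 for Ccn2. With only these groups in the fit none of the 5 was called, and in the scanner's own log ratios the calls of Cxcl5, Il6, Ms4a7 and Hk3 were lost.

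**Figure D5:**
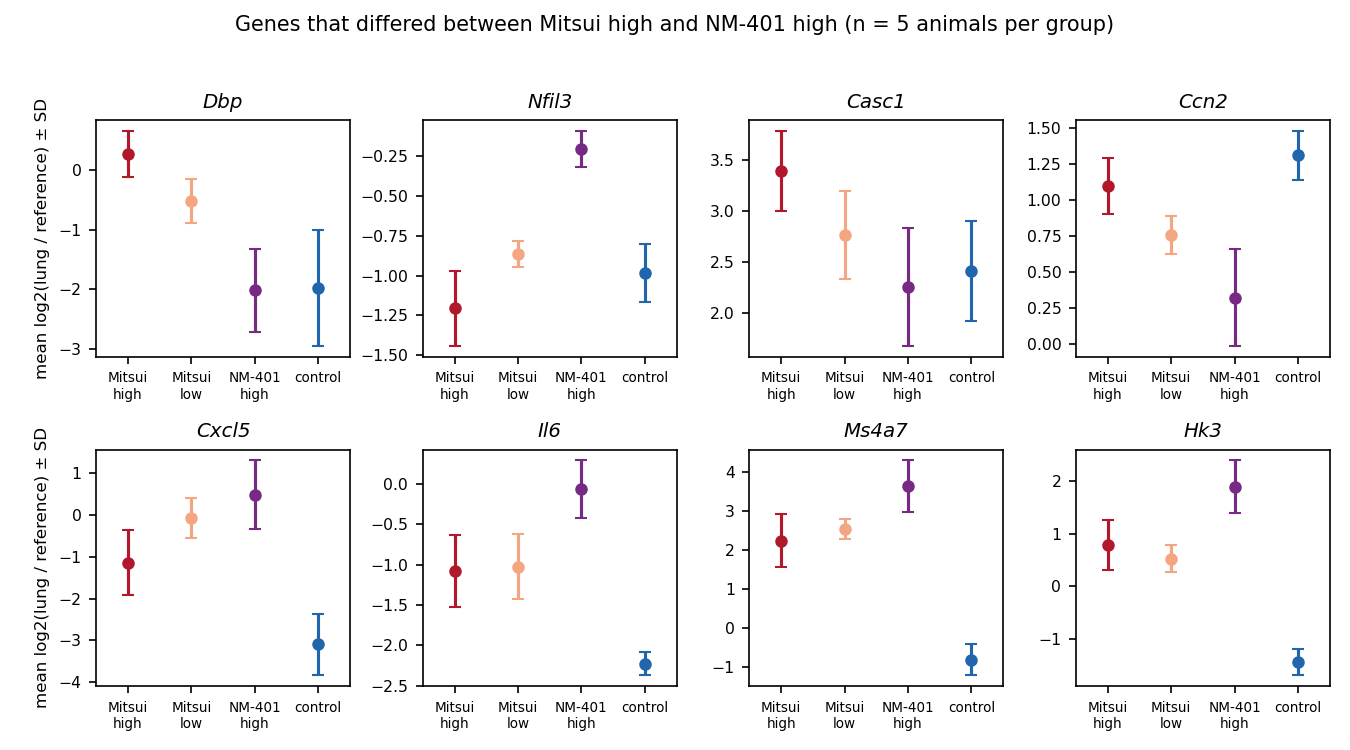
Mean log2 ratio of lung to reference RNA (vertical axes, scaled per gene) with SD bars for 5 animals each of Mitsui high, Mitsui low, NM-401 high and control, for 8 genes that differed between Mitsui high and NM-401 high lungs. Dbp averages 0.26 in Mitsui high and -2.02 in NM-401 high lungs. Casc1, named only here, differed by 1.13, and its call was lost in 7 of the 10 fits that each left out 1 animal. The Casc1 call was also lost with only these groups in the fit and in the scanner's own log ratios.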

How the data were processed

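The data are 26 two-colour Agilent arrays from 25 animals, and the comparison reported used 10 of them. Per the file headers, the deposited scanner output was made with Agilent Feature Extraction 11.0.1.1 and holds median spot and background intensity, log10 ratios of Cy5 over Cy3, and flags of 0 or 1 for outlier spots and for signal well above background, which are of another kind. The authors also deposited a table of normalised log2 ratios, whose normalization is not given in the sources used here.

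Median intensities were processed with limma 3.58.1 in R 4.3.3: they were background-corrected with normexp (offset 50) and normalised by loess. Outlier spots (0.461%) were left out, so some animal values of 93 kept probes are missing, and arrays of 1 animal were averaged. Of 55681 probes, 30466 passed the filter, that 1 group or more had 4 or more animals with Cy5 signal well above background. The brightest probe per gene gave 22950 features, 14838 with a symbol matched through RefSeq accessions and 8112 without. The fit had 1 mean per group over 25 animals, with 20 residual and 3.76 prior degrees of freedom. Labels give 5 animals per group, whose number limits the precision. No saturated spot was found (0). The fit was tested on simulated data.

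Members and gene lists were chosen with earlier results of these data known, so no p-value is given for a list, and none of the counts is independent support. Genes named are the 15 largest rises and 10 largest falls among called features with all exposed animals on 1 side of the control mean, and up to 4 called members per list with the largest rarer-direction member. Defining markers could be named whatever they did. For the other contrasts the 5 largest changes each way and 2 per list were taken, or the 3 smallest p. Only part of these is described, and 2 genes that the rule names are not reported here. Alternatives covered the background, loess, filter, probe choice, slide, replicate number, samples, source of values, variance model and leaving out animals. Replicate numbers did not pair animals, with correlations of 0.0513, -0.215, 0.412, -0.136 and 0.176 for numbers 1 to 5.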

Additional observations from a re-analysis of the deposited data

Results flagged for a closer look

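In 18 of 306 groups of 5 animals (5.88%), 1 animal lay farther from the other 4 than Dixon's 95% limit allows, and chance alone would give about 1 in 20. Among Mitsui high animals, animal 3 stood at 1.72 for Prex2 (others -0.54 to -0.32) and at -1.05 for Sqle (others -0.57 to -0.38). Mitsui high animal 2 stood at -1.72 for Fign (others 0.55 to 0.89) and at 5.41 for Hdc (others 5.14 to 5.21), and Mitsui high animal 5 at 6.37 for Cyp4b1 (others 7.06 to 7.34). Of the list means, the ciliated cell list was 0.83 and the p53 target list 0.28 in Mitsui high animal 2, and the iron and zinc list was 0.44 in Mitsui high animal 3.

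Among controls, animal 1 stood at -4.3 for Spp1 (others -3.55 to -3.33) and at 2.61 for Muc5b (others 0.95 to 1.35). Control animal 2 stood at -1.08 for Jchain, 0.46 for Foxp3, 6.39 for Sftpb and 1.41 for the adipose and other tissue list. Control animal 3 stood at 0.34 for Clca1, which was at background in every control, and at 0.08 for the NRF2 list. Control animal 4 stood at 0.53 for Csf2rb and control animal 5 at -0.21 for Plau. Between the nanotubes at the high dose, 182 features differed by limma's test of Mitsui high against NM-401 high.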

How the results depend on the processing

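Of 5447 features called between Mitsui high and control lungs, the count was 5432 without background correction, 4869 without the filter on dim probes, 5131 with a stricter filter, 6718 over all 30466 kept probes, 6883 with slide as a block, 5331 with the replicate number as a block, 4712 with only these groups in the fit, 5399 with the scanner's log ratios, 5533 with the authors' values and 5383 with another variance model. Leaving out 1 animal gave 4407 to 5448. The share of calls that were higher was 53.5%, against 48.2% with the scanner's log ratios, 47.3% with the authors' values and 86.8% of 121 calls with median scaling, under which the median standard error was 0.309 in place of 0.0951; the cause was not tested. Against the low dose, 0 calls became 15 with slide as a block, 1 with the replicate block, 1 with only these groups, and 0 to 3 with 1 animal left out. Against NM-401, 182 calls became 0 with median scaling, which moved the median of all features to -0.326, 94 without the filter, 510 with slide as a block, 4 with only these groups, 39 with the scanner's log ratios, 244 with the replicate block and 6 to 913 with 1 animal left out; the cause was not tested. With median scaling 3 named genes turned sign: Acta2 (-0.020) against NM-401, and Atp5c1 (-0.038) and Ndufs3 (-0.074) against control. Of 193 named results, median scaling kept the call or its absence in 48, the scanner's log ratios in 157 and the authors' values in 187. Differences of genes at background in a group are uncertain in size.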

Other observations

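Gm15772 averaged -0.0045 ± 0.13 in Mitsui high and -2.57 ± 0.6 in NM-401 high lungs, a difference of 2.57 ± 0.45 (limma, adjusted p = 0.0157), and that call was lost in 2 of the 10 fits that each left out 1 animal. Ptafr, the receptor for platelet-activating factor, averaged 0.39 ± 0.3 in Mitsui high and 1.86 ± 0.88 in NM-401 high lungs (-1.47 ± 0.35, adjusted p = 0.0487), a call lost in 8 of 10 such fits.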
